A study of Mus musculus with 30 samples.

Results

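Secondary (specific) and gelatinase granule genes of neutrophils were followed in mouse haematopoietic progenitor lines that carried STAT3Y640F, STAT3 or an empty vector. The group holds 8 genes, taken by name out of 50686 genes counted: Ltf, Camp, Ngp, Lcn2, Chil3, Hp, Mmp8 and Mmp9. All 8 had a row in the count tables. Their values came from 18 RNA libraries in 6 groups of 3: HPCLSK with STAT3Y640F, HPCLSK with STAT3, HPCLSK with empty vector, HPC7 with STAT3Y640F, HPC7 with STAT3 and HPC7 with empty vector. Both lines are mouse haematopoietic stem and progenitor cells. They were grown in IMDM that held stem cell factor, HPCLSK on plates coated with agarose, and no group had a further treatment. The vectors were retroviral, and the empty one is labelled dsRed. The labels give strain C57BL/6N for the HPCLSK RNA samples and 129SV for the HPC7 RNA samples, while chromatin samples of HPC7 are labelled C57BL/6N. The Y640F change lies in the SH2 domain of STAT3 and is known to activate the protein. The question of the design is what each form of STAT3 does to RNA levels in a progenitor line and what the changed residue adds.

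Neutrophils load their granules in an order, so that proteins made early, such as myeloperoxidase, go to primary granules, and proteins made later go to specific and then to gelatinase granules. The transcription factor C/EBP epsilon is known to be needed for specific granule genes, and granulocyte colony-stimulating factor, whose receptor signals through STAT3, drives the formation of neutrophils. Lactoferrin (Ltf) binds iron, cathelicidin (Camp) is the precursor of an antimicrobial peptide, and Ngp is a cystatin-related granule protein of mice. Lipocalin-2 (Lcn2) binds bacterial siderophores, Chil3 (Ym1) is a chitinase-like lectin without enzyme activity, and haptoglobin (Hp) binds free haemoglobin. Mmp8 is the neutrophil collagenase and Mmp9 is gelatinase B.

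The replicates are described in the series text as technical, so p-values measure the spread between these libraries only. Levels are given as CPM (the count of a gene relative to its library's total), with totals adjusted over the 18 libraries by edgeR's TMM factors. Within a line, log2 fold changes come from a fit of the 9 libraries of that line, and a gene was called at a Benjamini-Hochberg adjusted p under 0.05 in edgeR's quasi-likelihood test with at least a 2-fold change. All HPCLSK libraries were sequenced on one flow cell and all HPC7 libraries on another, so line and flow cell cannot be told apart. Library totals ran from 9537258 to 22154763 counts in HPCLSK and from 23127740 to 38556669 counts in HPC7, and 3 counts in a library correspond to 0.135 to 0.315 CPM in HPCLSK and 0.078 to 0.13 CPM in HPC7. Stat3 itself averaged 1900.2 ± 45.0 CPM in HPCLSK with Y640F, 599 ± 42.2 with STAT3 and 354 ± 12.4 with empty vector, and 669 ± 20.9, 996 ± 17.1 and 225 ± 10.1 CPM in the same order in HPC7 (SD, n = 3 each). Over empty vector, Stat3 was called higher in HPCLSK with Y640F (log2 fold change 2.43) and in HPC7 with Y640F (1.59) and STAT3 (2.15), while in HPCLSK with STAT3 it stood at 0.76, under the 2-fold minimum. Of 4 genes of the STAT3 pathway, Stat3 among them, 3 were called higher with Y640F and none with STAT3 over empty vector in HPCLSK (4 and none without the pair of libraries described below). In HPC7 all 4 were higher with Y640F, and with STAT3 1 (Stat3) was higher and 2 were lower, Bcl3 (-2.49) and Pim1 (-1.06). The vectors therefore differed in Stat3 RNA as well as in residue, and the effects of the residue and of the amount cannot be told apart. A pair of HPCLSK libraries stood apart from the others of their group. Replicate 1 of empty vector was lower than the mean of its group's other libraries for all 8 genes, by 1.38-fold for Hp to 26.9-fold for Mmp9. The last value rests on 2 counts of Mmp9 in that library. Replicate 1 of Y640F was higher than the other Y640F libraries by 1.68-fold for Hp, 1.55-fold for Mmp8 and 2.34-fold for Mmp9. Replicate 1 of Y640F was also 1.75-fold higher for Camp and 2.12-fold lower for Ltf. Replicate 3 of STAT3 in HPCLSK, the library with the fewest counts, was also lower than the other STAT3 libraries. It was lower by 2.74-fold for Hp, 2.21-fold for Ltf, 2.03-fold for Camp, 1.94-fold for Ngp, 1.88-fold for Chil3 and 1.7-fold for Lcn2. For Mmp9 it was 1.07-fold lower and for Mmp8 1.27-fold higher, and it was not left out with the pair. Replicate 2 of empty vector in HPCLSK was higher than the mean of its group's other libraries for all 8 genes. The excess ran from 1.42-fold for Hp to 2.86-fold for Camp, and that library was not left out with the pair either. By library-wide counts, the HPC7 empty vector libraries, the baseline in HPC7, also differed among themselves (chi-square per degree of freedom 10.29 to 20.19), against 2.49 to 10.62 in the HPCLSK empty vector group and 3.3 to 27.04 in the HPCLSK Y640F group. Log2 fold changes of the 8 genes and list counts in HPCLSK are given below with all libraries and without this pair, and other values use all libraries. The list counts without the pair were added after the data were seen.

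Ltf, Camp and Ngp lie within a stretch of chromosome 9 and share a direction in HPCLSK, while Mmp8 lies far from them on the same chromosome and goes another way. In GRCm38, per the count tables, Ltf (ENSMUSG00000032496.7) lies at chr9:111019271-111042767 on the plus strand, Ngp (ENSMUSG00000032484.8) at chr9:110419747-110423012 on the plus strand and Camp (ENSMUSG00000038357.10) at chr9:109847379-109849617 on the minus strand. Mmp8 (ENSMUSG00000005800.3) lies at chr9:7558456-7568485 on the plus strand. On chromosome 2, Lcn2 (ENSMUSG00000026822.14) spans chr2:32384633-32388252 on the minus strand and Mmp9 (ENSMUSG00000017737.2) spans chr2:164940780-164955850 on the plus strand. Chil3 (ENSMUSG00000040809.10) is at chr3:106147554-106167564 and Hp (ENSMUSG00000031722.10) at chr8:109575128-109579172, both on the minus strand. No exon of the 8 genes overlaps an exon of another gene on either strand.

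Upstream sequences are shown for a pair of genes that fell with Y640F in HPCLSK (Ltf and Ngp) and a pair that rose (Mmp8 and Chil3). They were taken from the 250 bases before the RefSeq start (GRCm38.p6), 5′ to 3′ on the gene's strand, and cut where the counted gene begins, which left 229 bases for Ltf and 189 for Ngp. Capitals mark matches to TTGCNNAA on either strand, a letter pattern of C/EBP sites, in Ltf, Ngp and Mmp8, and to TTCNNNGAA, a pattern that many STAT sites have, in Chil3. Both patterns were chosen after the sequences had been read.
Ltf, chr9:111019042-111019270, plus strand: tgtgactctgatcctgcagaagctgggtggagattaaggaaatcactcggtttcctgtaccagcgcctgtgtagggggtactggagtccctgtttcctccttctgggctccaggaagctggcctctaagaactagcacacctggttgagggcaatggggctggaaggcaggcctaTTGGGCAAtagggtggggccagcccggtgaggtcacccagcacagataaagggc
Ngp, chr9:110419558-110419746, plus strand: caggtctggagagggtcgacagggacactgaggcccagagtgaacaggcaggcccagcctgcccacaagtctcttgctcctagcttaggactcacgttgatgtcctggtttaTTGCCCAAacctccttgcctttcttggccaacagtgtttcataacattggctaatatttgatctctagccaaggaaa
Mmp8, chr9:7558179-7558428, plus strand: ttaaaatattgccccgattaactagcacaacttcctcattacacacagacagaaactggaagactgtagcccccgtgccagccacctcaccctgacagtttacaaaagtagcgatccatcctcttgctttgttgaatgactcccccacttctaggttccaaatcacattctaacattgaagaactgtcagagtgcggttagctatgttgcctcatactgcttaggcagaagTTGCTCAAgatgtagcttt
Chil3, chr3:106167565-106167814, minus strand: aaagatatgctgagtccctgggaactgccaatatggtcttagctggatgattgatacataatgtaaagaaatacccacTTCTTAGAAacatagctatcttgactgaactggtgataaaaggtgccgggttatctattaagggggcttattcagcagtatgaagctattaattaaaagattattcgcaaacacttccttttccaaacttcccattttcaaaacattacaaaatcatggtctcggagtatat
RefSeq entries were at hand for 6 of the 8 genes (not for Hp and Mmp9), and the whole 250-base window of each was searched. TTGCNNAA matched in 4 of these 6 windows, with a pair of matches in Ngp, against 9.56% of the 32851 windows of the same length. This contrast is a description, since the pattern was chosen after the sequences had been read. With the base before the start as -1, the matches lie at -75 to -68 in Ltf, -138 to -131 and -11 to -4 in Ngp, -216 to -209 in Lcn2 and -19 to -12 in Mmp8. None was found in the windows of Camp and Chil3. The Lcn2 window lies wholly inside the counted gene, as do 161 of the 250 bases for Camp, 61 for Ngp and 21 for Ltf. The Lcn2 match and the -11 to -4 match of Ngp thus lie inside the counted gene. TTCNNNGAA was found in 1 of the 6 windows, that of Chil3, against 7.02% of the 32851. Genes with a match to TTGCNNAA thus include Ltf and Ngp, which fell with Y640F in HPCLSK, and Lcn2 and Mmp8, which rose. A match describes letters in the window and no binding was measured here.

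**Figure D1:**
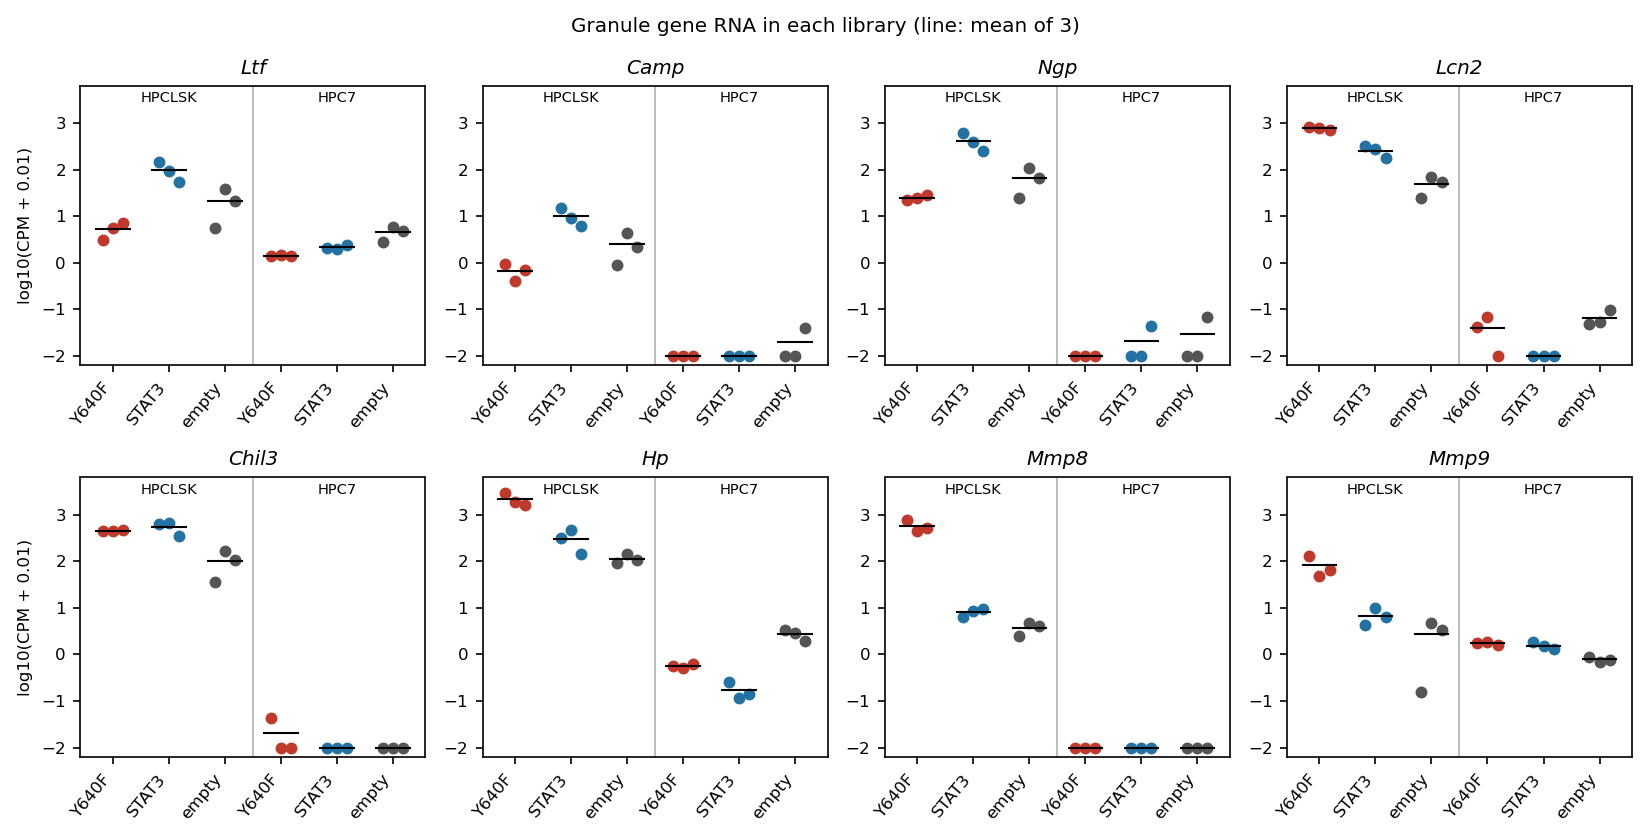
RNA level of each granule gene in each library, as log10(CPM + 0.01) on the vertical axis, with groups from left to right as Y640F, STAT3 and empty vector in HPCLSK and then in HPC7; points are libraries and lines mark the mean CPM of 3. Ltf, Camp and Ngp are highest with STAT3 in HPCLSK, Mmp8 is at 458 to 756 CPM with Y640F in HPCLSK, and 5 of the 8 genes stay at or near 0 in HPC7.

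In HPCLSK with Y640F, the 8 genes moved in opposite directions against empty vector: 5 were called higher (Lcn2, Chil3, Hp, Mmp8 and Mmp9) and 3 were called lower (Ltf, Camp and Ngp). Over all 12552 genes tested, 9.62% were called higher and 6.57% lower, 16.2% in all. The median log2 fold change was 3.06 for the 8 genes and -0.01 for all genes tested. Against STAT3, 4 of the 8 were higher with Y640F, 3 were lower and Chil3 was not called, with 14.2% of genes called in that comparison, 8.11% higher and 6.09% lower. STAT3 and Y640F were compared with the same empty vector libraries, so these comparisons are not independent of each other. In cultures measured in bulk, fewer cells of a type and less RNA per cell cannot be told apart.

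**Figure D2:**
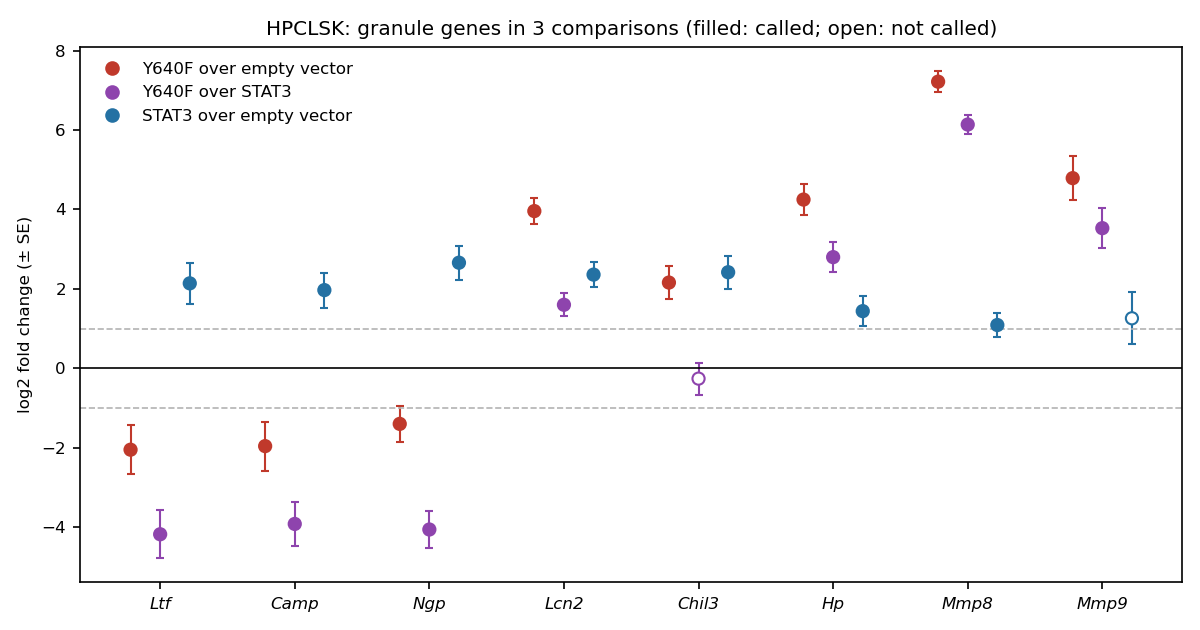
Log2 fold changes of the 8 granule genes in HPCLSK (vertical axis) with bars of ± 1 SE, for Y640F over empty vector, Y640F over STAT3 and STAT3 over empty vector; dashed lines mark a 2-fold change and open points were not called. Ltf, Camp and Ngp are below 0 in both comparisons of Y640F and above 0 with STAT3, while Mmp8 reaches 7.22 with Y640F.

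Among the iron-binding and antimicrobial proteins of specific granules, Ltf had 3.03, 5.55 and 7.29 CPM in the Y640F libraries of HPCLSK, 148, 92.5 and 54.6 CPM with STAT3 and 5.57, 38.0 and 21.8 CPM with empty vector. The STAT3 libraries were the high ones and overlapped with neither other group, while Y640F overlapped with empty vector through the low replicate 1 of empty vector. Ltf fell with Y640F, with a log2 fold change of -2.05 ± 0.62 (SE, adjusted p = 0.015) over empty vector and -4.18 ± 0.60 (adjusted p = 2.1e-04) over STAT3. With STAT3 it rose, by 2.14 ± 0.51 on the log2 scale over empty vector (adjusted p = 0.019).

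Camp, the cathelicidin precursor, had 0.943, 0.392 and 0.685 CPM with Y640F, 15.4, 9.36 and 6.09 CPM with STAT3 and 0.892, 4.41 and 2.20 CPM with empty vector. Its groups lay in the same order as those of Ltf, again with Y640F overlapping the low replicate 1 of empty vector and STAT3 apart from both. The log2 fold change was -1.96 ± 0.62 for Y640F over empty vector (adjusted p = 0.018), -3.92 ± 0.55 for Y640F over STAT3 (adjusted p = 1.8e-04) and 1.97 ± 0.44 for STAT3 over empty vector (adjusted p = 0.014). The levels of Camp rest on few reads, 34 counts over the Y640F group, 445 with STAT3 and 149 with empty vector.

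Ngp, the cystatin-related protein, had 22.3, 24.2 and 28.5 CPM with Y640F, 613, 390 and 259 CPM with STAT3 and 24.4, 107 and 65.9 CPM with empty vector. Here too the STAT3 libraries stood above all others and only replicate 1 of empty vector reached down to the Y640F libraries. Ngp fell with Y640F, with log2 fold changes of -1.40 ± 0.46 over empty vector (adjusted p = 0.022) and -4.06 ± 0.47 over STAT3 (adjusted p = 5.0e-05), and rose with STAT3 by 2.66 ± 0.43 over empty vector (adjusted p = 0.0023). The falls against empty vector rest on single libraries. Without replicate 2 of empty vector the log2 fold changes were -1.37 for Ltf, -1.23 for Camp and -0.85 for Ngp, with adjusted p of 0.083, 0.11 and 0.12, and none was called. The call of Camp was also lost without Y640F replicate 2 or 3 (adjusted p of 0.056 and 0.05) and that of Ngp without Y640F replicate 2 (0.052). Without both libraries that stood apart they were -2.23 for Ltf, -2.61 for Camp and -1.73 for Ngp, all called. With all libraries, none of these 3 falls was called by edgeR's glmTreat, a test against a 1.5-fold change (adjusted p of 0.0683, 0.0832 and 0.125). Against STAT3, all 3 were called lower in each alternative fitted, with log2 fold changes from -4.51 to -3.56.

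Lcn2, the siderophore-binding lipocalin, had 849, 785 and 701 CPM with Y640F, 319, 276 and 175 CPM with STAT3 and 25.2, 70.0 and 53.9 CPM with empty vector. The groups did not overlap, and the step up was present both with STAT3 and again with Y640F. Its log2 fold change was 3.96 ± 0.33 for Y640F over empty vector (adjusted p = 3.3e-06), 1.60 ± 0.29 for Y640F over STAT3 (adjusted p = 9.7e-04) and 2.36 ± 0.31 for STAT3 over empty vector (adjusted p = 6.2e-04). Leaving out both libraries that stood apart gave 3.56, 1.51 and 2.06 in the same order, all called.

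Chil3, the chitinase-like lectin, had 452, 439 and 481 CPM with Y640F, 646, 653 and 345 CPM with STAT3 and 35.7, 165 and 105 CPM with empty vector. Both forms of STAT3 lay above empty vector with no overlap, and the Y640F libraries fell inside the range of the STAT3 libraries. Chil3 rose by 2.16 ± 0.42 with Y640F over empty vector (adjusted p = 0.0012) and by 2.42 ± 0.42 with STAT3 over empty vector (adjusted p = 0.0036), and the log2 difference of Y640F over STAT3 was -0.26 ± 0.40 (adjusted p = 0.61), not called. Without the pair that stood apart these were 1.75, 2.02 and -0.27, with the same calls. Chil3 has near-identical relatives in its cluster, and reads that match several genes equally could have been lost or split. Its relatives Chil6 and Chia1 were at 0 counts in every HPCLSK library and Chil4 was under 0.1 CPM in every group.

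Hp, the haemoglobin-binding protein, had 2959, 1898 and 1616 CPM with Y640F, 319, 463 and 143 CPM with STAT3 and 91.1, 142 and 109 CPM with empty vector. Y640F stood far above the rest, while the lowest STAT3 library lay just above the highest of empty vector. The log2 fold change was 4.25 ± 0.40 for Y640F over empty vector (adjusted p = 9.2e-06), 2.80 ± 0.38 for Y640F over STAT3 (adjusted p = 1.3e-04) and 1.44 ± 0.37 for STAT3 over empty vector (adjusted p = 0.025). The call with STAT3 was lost in 4 fits that left out 1 library (empty vector replicate 1 or 3, STAT3 replicate 1 or 2), with log2 fold changes of 1.02 to 1.42 and adjusted p of 0.079 to 0.10. With both libraries that stood apart left out, the values were 3.79, 2.48 and 1.31 in the same order, all called.

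In the comparisons of Y640F in HPCLSK, the largest log2 fold change of the 8 genes was that of a metalloprotease, Mmp8. Mmp8, the collagenase, had 756, 458 and 518 CPM with Y640F, 6.34, 8.74 and 9.60 CPM with STAT3 and 2.45, 4.77 and 3.99 CPM with empty vector. The 3 groups did not overlap, and the gap between Y640F and STAT3 was far wider than that between STAT3 and empty vector. Its log2 fold change was 7.22 ± 0.26 for Y640F over empty vector (adjusted p = 3.3e-08), 6.14 ± 0.24 for Y640F over STAT3 (adjusted p = 6.9e-08) and 1.09 ± 0.31 for STAT3 over empty vector (adjusted p = 0.042). The last call was lost in 5 of the 6 fits that left out 1 of the compared libraries, with adjusted p of 0.052 to 0.13, and without both libraries that stood apart the value was 0.90, not called, beside 6.77 over empty vector and 5.87 over STAT3 for Y640F, both called.

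Mmp9, the gelatinase, had 133, 49.3 and 64.2 CPM with Y640F, 4.23, 9.69 and 6.50 CPM with STAT3 and 0.149, 4.64 and 3.35 CPM with empty vector. Y640F lay above all other libraries, while STAT3 and empty vector overlapped. The level of 0.149 CPM rests on 2 counts. Mmp9 rose by 4.79 ± 0.56 with Y640F over empty vector (adjusted p = 3.6e-05) and by 3.53 ± 0.51 over STAT3 (adjusted p = 2.1e-04), and its log2 fold change with STAT3 over empty vector was 1.26 ± 0.65 (adjusted p = 0.24), not called. Without both libraries that stood apart, the change with Y640F was 3.79 over empty vector and 2.96 over STAT3, both called, and that with STAT3 over empty vector was 0.84, not called. With no filter on low counts the comparison of STAT3 with empty vector was called (1.25, adjusted p = 6.8e-04). Leaving out the filter also made adjusted p far smaller elsewhere in edgeR's test. For Ltf between the lines with empty vector it was 1.8e-89 (2.32), against 1.6e-04 (2.33) with the filter. No weight is put on the unfiltered call of Mmp9.

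With STAT3 over empty vector in HPCLSK, 7 of the 8 genes were called higher and none lower, where 2.8% of all genes tested were called higher and 1.79% lower, 4.6% in all. The median log2 fold change was 2.05 for the 8 and 0.0 for all genes. This count fell to 3 (Ngp, Lcn2 and Chil3) without replicate 3 of empty vector or without replicate 1 of STAT3. Without both libraries that stood apart it was 6, all but Mmp8 and Mmp9, with log2 fold changes of 1.71 for Ltf, 1.61 for Camp and 2.28 for Ngp and 4.88% of all genes called.

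Because all values of a library share its scaling, the balance between granule genes can be read inside each library. The ratio of Lcn2 to Ngp was 24.6 to 38.1 with Y640F, 0.521 to 0.708 with STAT3 and 0.652 to 1.03 with empty vector. For Mmp8 to Ngp it was 18.2 to 33.9 with Y640F, 0.0103 to 0.037 with STAT3 and 0.0444 to 0.101 with empty vector. In every Y640F library these ratios lay more than 10-fold above any other library, the pair that stood apart included. Chil3 to Ngp was 16.9 to 20.3 with Y640F, 1.05 to 1.67 with STAT3 and 1.46 to 1.60 with empty vector. Among the genes that fell together with Y640F, the ratios of the 3 groups lay closer. Ngp to Camp was 23.6 to 61.8 with Y640F, 39.9 to 42.6 with STAT3 and 24.3 to 30.0 with empty vector, and Ltf to Ngp was 0.136 to 0.256, 0.211 to 0.242 and 0.229 to 0.354 in the same order. Mmp9 to Mmp8, the 2 proteases, was 0.108 to 0.176 with Y640F, 0.667 to 1.11 with STAT3 and 0.0606 to 0.972 with empty vector. The ratio of 0.0606 rests on 2 counts of Mmp9. These ratios of CPM are not corrected for gene length and compare libraries, not genes. They restate the fold changes given above inside each library. Ngp fell with Y640F, so genes that rose must have higher ratios to it and genes that fell with it closer ones. The ratios are therefore no separate support for those changes.

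**Figure D3:**
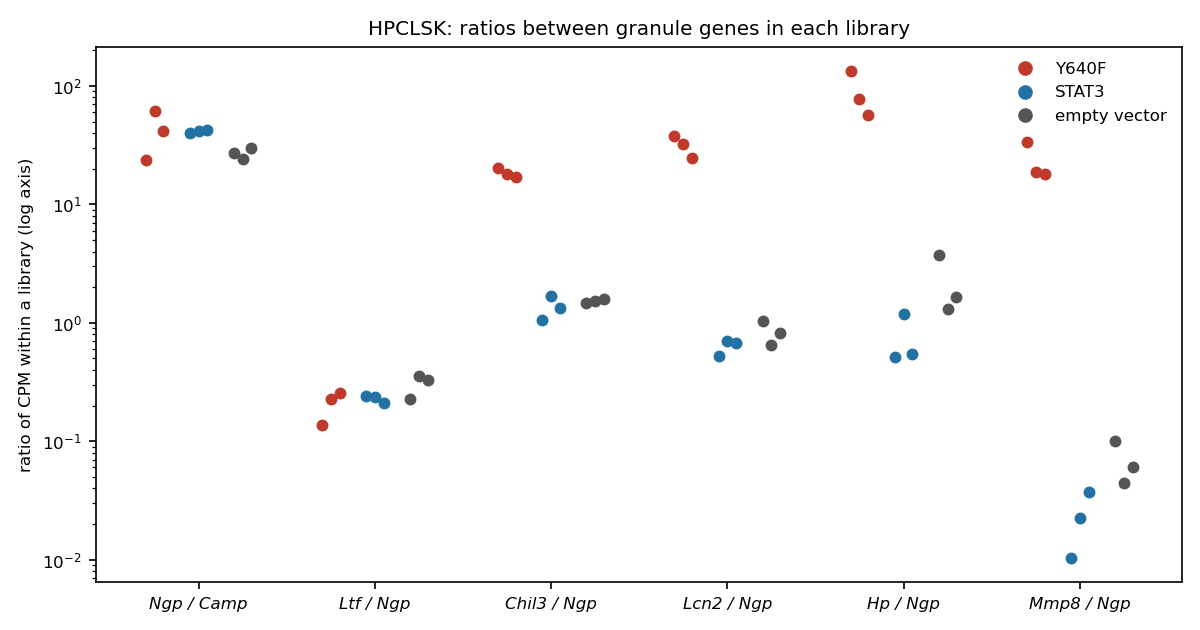
Ratio of the CPM of a pair of granule genes inside each HPCLSK library (log axis), for 6 pairs of genes, with Y640F, STAT3 and empty vector from left to right in each pair and 1 point per library. Ngp / Camp and Ltf / Ngp stay within a narrow band, while Chil3, Lcn2, Hp and Mmp8 relative to Ngp are higher in all 3 Y640F libraries than in any other.

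Per kilobase of exon, the order of levels differed between the vectors in HPCLSK. With Y640F, Hp led with 1343 ± 441 CPM per kb, followed by Lcn2 (297 ± 28.3), Chil3 (280.3 ± 13.1) and Mmp8 (238 ± 64.9), then Mmp9 (23.2 ± 12.6) and Ngp (20.5 ± 2.61), with Ltf (1.53 ± 0.62) and Camp (0.888 ± 0.364) last (SD, n = 3). Lcn2 with Chil3, Chil3 with Mmp8, Mmp9 with Ngp and Ltf with Camp had ranges of mean ± SD that overlapped. With STAT3, Ngp (344 ± 147 CPM per kb), Chil3 (336 ± 108), Hp (192 ± 100.0) and Lcn2 (97.9 ± 28.2) led, with overlapping ranges of mean ± SD between neighbours, and Ltf (28.5 ± 13.7), Camp (13.6 ± 6.21), Mmp8 (3.39 ± 0.695) and Mmp9 (1.92 ± 0.776) followed, with those of Ltf and Camp overlapping too. With empty vector the order was Hp (71.0 ± 16.1 CPM per kb), Chil3 (62.5 ± 39.7), Ngp (53.9 ± 33.9), Lcn2 (18.9 ± 8.65), Ltf (6.32 ± 4.70), Camp (3.30 ± 2.35), Mmp8 (1.54 ± 0.486) and Mmp9 (0.766 ± 0.653), and the ranges of mean ± SD of all neighbours overlapped. With STAT3, Chil3 made up 30.8, 34.5 and 34.7% of the summed length-scaled level of the 8 genes in the 3 libraries and Hp 15.4, 24.9 and 14.6%. With empty vector, Lcn2 made up 8.58, 8.23 and 9.40% and Ltf 1.44, 3.40 and 2.90%. As mean shares of the summed length-scaled level of the 8 genes, Hp made up 60.1% with Y640F, 18.3% with STAT3 and 36.3% with empty vector. Ngp made up 0.977%, 33.8% and 23.2% in the same order, and Mmp8 10.8%, 0.388% and 0.754%.

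Other genes listed for the later granules and secretory vesicles moved up more than down in HPCLSK. Monocyte, macrophage and dendritic cell markers also rose with Y640F over empty vector, with 9 of 13 tested called higher and none lower. Which type of cell the RNA of the listed genes came from was not tested. Of 23 other specific granule, gelatinase granule and secretory vesicle genes, 19 were tested in HPCLSK. Over all genes tested, 16.2% were called for Y640F over empty vector, 4.6% for STAT3 over empty vector and 14.2% for Y640F over STAT3. With Y640F over empty vector, 16 were called higher and none lower (median log2 fold change 2.29), led by Fpr1, a formyl peptide receptor (6.72), Adam8, a surface metalloprotease (5.52), and Mcemp1 (4.47). With STAT3 over empty vector, 8 were called higher and none lower (median 1.18), led by Orm1 (3.02), Mcemp1 (2.88) and Pglyrp1, a peptidoglycan-binding protein (2.81). With Y640F over STAT3, 14 were higher and 2 lower (median 1.32). The 2 lower genes were Itgb2l, an integrin beta subunit found on neutrophils (-3.19 ± 0.48), and Orm1 (-1.16 ± 0.40). Itgb2l averaged 1.53 CPM with Y640F, 14.3 with STAT3 and 2.22 with empty vector, the order that Ltf, Camp and Ngp had, and its change of -0.58 with Y640F over empty vector was not called. Without both libraries that stood apart, 16 were higher and none lower with Y640F over empty vector, 8 higher and none lower with STAT3 over empty vector, and 13 higher and 1 lower with Y640F over STAT3. Of all genes tested, 15.5%, 4.88% and 13.6% were then called in the same order.

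Primary granule genes, which are made earlier in the lineage, were tested in HPCLSK beside 16.2% of all genes called for Y640F over empty vector, 4.6% for STAT3 over empty vector and 14.2% for Y640F over STAT3. Of 8 tested, 1 was called higher and none lower with Y640F over empty vector (Ctsc, the protease that activates granule proteases, 1.27 ± 0.12). With STAT3 over empty vector 1 was higher (Elane, neutrophil elastase, 2.35 ± 0.42), and with Y640F over STAT3 Ctsc was higher (1.47) while Elane (-1.57) and Mpo, myeloperoxidase (-1.27), were lower. Elane averaged 91.9 ± 44.6 CPM with Y640F, 276 ± 152 with STAT3 and 54.2 ± 11.3 with empty vector (SD, n = 3). The list medians were 0.34 for Y640F over empty vector, 0.31 for STAT3 over empty vector and -0.43 for Y640F over STAT3. Leaving out the pair that stood apart, 2 were higher with Y640F over empty vector, and the other counts were unchanged. Summed levels of the list were 6654 to 10468 CPM with Y640F, 14661 to 19168 with STAT3 and 11004 to 14868 with empty vector.

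Among 10 regulators of granule genes, 9 were tested in HPCLSK. With Y640F over empty vector 3 were called higher and 1 lower, beside 9.62% and 6.57% of all genes tested. The shares of all genes called higher and lower were 2.8% and 1.79% for STAT3 over empty vector. For Y640F over STAT3 they were 8.11% and 6.09%. Cebpb, a C/EBP factor of emergency granulopoiesis, averaged 65.2 ± 15.7 CPM with Y640F, 14.1 ± 1.88 with STAT3 and 7.35 ± 2.72 with empty vector (SD, n = 3), a log2 fold change of 3.11 ± 0.24 over empty vector. Cebpe, the factor of specific granule genes, averaged 32.0 ± 8.57 CPM with Y640F, 27.4 ± 8.61 with STAT3 and 6.89 ± 1.17 with empty vector (SD, n = 3). It rose with both forms over empty vector, by 2.21 with Y640F and 1.97 with STAT3, and was the 1 regulator called with STAT3 over empty vector. Between Y640F and STAT3, Cebpe differed by 0.25 ± 0.24 (adjusted p = 0.40), not called. Ltf, Camp and Ngp differed more than 10-fold in that comparison, and the part of Cebpe in their levels was not tested. Spi1 (PU.1) rose by 1.33 with Y640F over empty vector, and Gfi1, a repressor needed for neutrophil development, fell by 1.08. Cebpb (2.19) and Spi1 (1.01) were also higher with Y640F than with STAT3, and no regulator was called lower. With the pair that stood apart left out, 3 were higher and none lower with Y640F over empty vector, and 1 was higher with Y640F over STAT3. The receptor gene Csf3r, given here for its role and not for its change, averaged 441 ± 12.5 CPM with Y640F, 539 ± 37.3 with STAT3 and 463 ± 53.0 with empty vector and was not called.

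A list of 12 receptors, binding partners and inhibitors of the granule proteins had 6 members tested in HPCLSK. The shares of all genes called in each comparison are those given for the regulators. With Y640F over empty vector 4 rose: Lrp1, an endocytic receptor that takes up lactoferrin and protease complexes (4.74 ± 0.14), Fpr2, a receptor for cathelicidin peptide (4.22 ± 0.30), Mmp2 (3.95 ± 0.39) and Timp2, an inhibitor of metalloproteases (3.79 ± 0.25). Slc22a17, a lipocalin-2 receptor, fell by 1.60. Lrp1 averaged 592 ± 80.2 CPM with Y640F, 56.3 ± 8.57 with STAT3 and 22.3 ± 2.56 with empty vector (SD, n = 3). The same 4 genes rose with STAT3 over empty vector by 1.34 to 2.18, with none lower, and Y640F over STAT3 again gave 4 higher and Slc22a17 lower (-2.0). Fpr2 is also counted among the other granule genes above. Lrp2, a further lipocalin-2 receptor, was at 0 counts in all HPCLSK libraries. Of 5 chitinase-like relatives of Chil3, 2 were tested: Chil1 rose with Y640F (2.40) and STAT3 (2.91) over empty vector, Chil5 fell with both (-2.24 and -1.58), and neither was called for Y640F over STAT3. The counts of both lists were the same without the pair that stood apart.

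Markers of several cell types moved beside the granule genes in HPCLSK, and their part in the results was not tested. Over all genes tested, 16.2% were called for Y640F over empty vector, 4.6% for STAT3 over empty vector and 14.2% for Y640F over STAT3. Of 10 mature neutrophil markers 8 were tested; Itgb2l, Fpr1, Cd177, Retnlg and Csf3r of this list also stand in the lists above. With Y640F over empty vector 5 were higher and none lower, with STAT3 over empty vector 4 were higher and none lower, and Y640F over STAT3 gave 4 higher and 1 lower. S100a8, a subunit of calprotectin, rose by 4.52 with Y640F and 3.05 with STAT3 over empty vector. Ly6g, the surface marker of mature mouse neutrophils, was at 0 in the empty vector libraries and under 0.1 CPM in the Y640F and STAT3 groups, and Retnlg was under 1 CPM in all 3. The summed neutrophil markers were 8629.5 to 10752 CPM with Y640F, 3220.1 to 6097 with STAT3 and 639.7 to 1267 with empty vector. Monocyte, macrophage and dendritic cell markers, 13 of 14 tested, had 9 higher and none lower with Y640F over empty vector, led by Vcan (5.22), Cx3cr1 (4.18) and Cd14 (3.88), and 10 higher and 1 lower with Y640F over STAT3, while STAT3 over empty vector gave 1 higher and 2 lower. Their sum was 1857 to 2708 CPM with Y640F, 379 to 679 with STAT3 and 503 to 608 with empty vector, and C1qa was under 0.1 CPM in all 3 groups. Ly6c2, the 1 monocyte marker that was higher with STAT3 (2.08), was lower with Y640F than with STAT3 (-2.94).

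**Figure D4:**
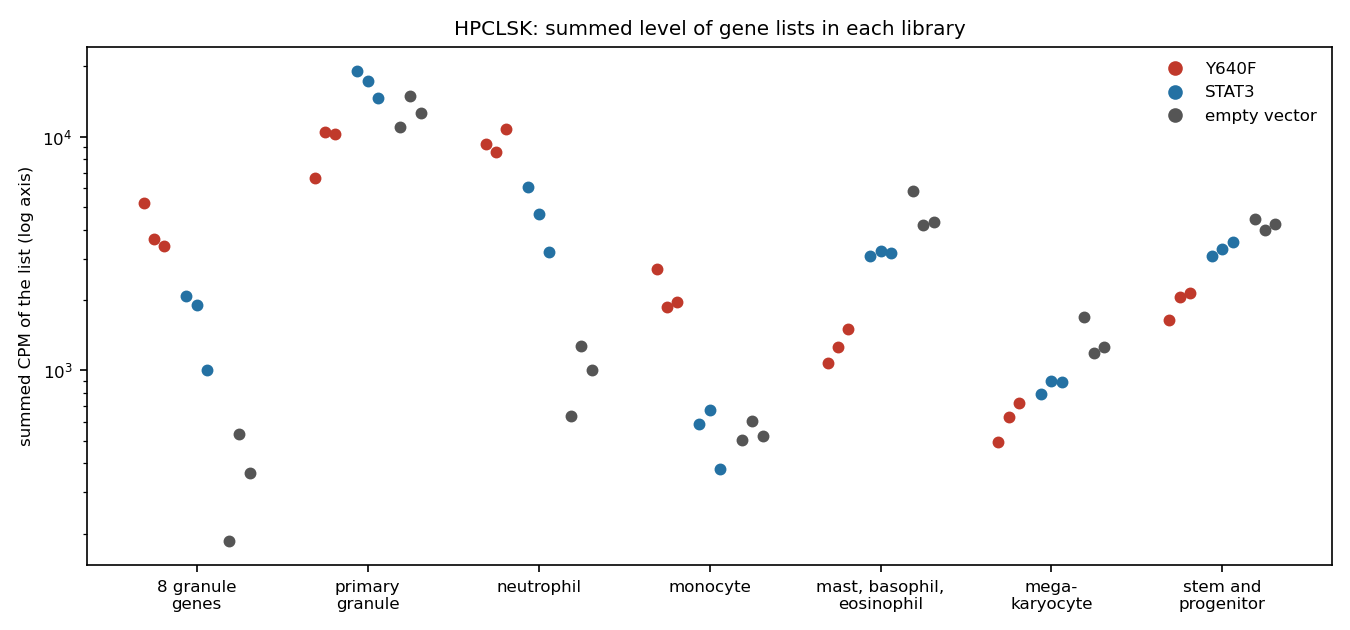
Summed CPM of gene lists in each HPCLSK library (log axis), with Y640F, STAT3 and empty vector from left to right for each list and 1 point per library. The 8 granule genes sum to 3417 to 5176 CPM with Y640F, 998 to 2072 with STAT3 and 185 to 536 with empty vector; neutrophil marker sums are ordered the same way, monocyte marker sums are raised with Y640F only, and mast cell, megakaryocyte and progenitor marker sums are lowest with Y640F.

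Markers of mast cells, megakaryocytes and progenitors included genes called lower with Y640F. Over all genes tested, 6.57% were called lower for Y640F over empty vector, 1.79% for STAT3 over empty vector and 6.09% for Y640F over STAT3. Of 7 eosinophil, basophil and mast cell markers tested, 1 was higher (Prg2 5.68) and 4 lower (Ms4a2 -2.97, Cpa3 -2.24) with Y640F over empty vector. Prg2 averaged 14.9 ± 18.1 CPM with Y640F (SD, n = 3), a wide spread. With STAT3 over empty vector 1 marker of this list was lower. For Y640F over STAT3 this list had 1 higher and 3 lower. Of 5 megakaryocyte and platelet markers tested, 1 was higher (Vwf 2.79) and 4 lower (Pf4 -1.42, Gp9 -1.31) with Y640F over empty vector. None of them was called with STAT3 over empty vector, and 1 was higher and 3 lower with Y640F over STAT3. Stem and progenitor markers, 9 of 9 tested, had 4 lower with Y640F (Hlf -1.67, Kit -1.51, Cd34 -1.24) and 3 lower with STAT3 over empty vector and none higher, and 1 higher and 1 lower with Y640F over STAT3. Kit, the receptor of stem cell factor, still averaged 259 ± 30.0 CPM with Y640F, 643 ± 22.4 with STAT3 and 743 ± 75.1 with empty vector (SD, n = 3). Erythroid markers summed to at most 1.86 CPM in any HPCLSK library, with 1 of 2 tested lower with Y640F over empty vector. Among lymphoid markers, 1 of 5 was tested, Il7r, which rose with Y640F over empty vector (4.21) and over STAT3 (2.42). Stromal markers had 1 of 5 tested and none called, with Col1a2, Col3a1 and Dcn at 0. Without both libraries that stood apart, neutrophil markers had 5 higher and 1 lower with Y640F over STAT3. Monocyte markers then had 10 higher and 1 lower with Y640F over empty vector and 9 higher and 1 lower with Y640F over STAT3. Megakaryocyte markers had 3 lower with Y640F over empty vector and 2 lower with Y640F over STAT3, Il7r was also called higher with STAT3 over empty vector, and the other marker counts in HPCLSK were unchanged.

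In HPC7 the granule genes were nearly silent. Only Ltf, Hp and Mmp9 had enough counts to be tested; the other 5 genes had 0 to 5 counts over a group of 3 libraries, and Mmp8 had 0 counts in all 9 HPC7 libraries. Chil3 was at 0 except for 1 count in a Y640F library, and Lcn2 had 3 counts with Y640F, 0 with STAT3 and 5 with empty vector. Changes of these 5 genes were not detectable in HPC7 at this depth. With Y640F over empty vector, 1 of the 3 tested genes was called higher and 2 lower (4.54% and 3.64% of all 12683 genes tested, 8.18% in all). With STAT3 over empty vector none was called higher and 2 were lower (1.81% and 5.41%, 7.22% in all). With Y640F over STAT3, 1 was higher and none lower (6.17% and 1.73%, 7.89% in all).

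Ltf in HPC7 had 1.41, 1.49 and 1.37 CPM with Y640F, 2.10, 1.96 and 2.42 CPM with STAT3 and 2.78, 5.94 and 4.78 CPM with empty vector. The groups did not overlap and empty vector was the highest and most spread. Ltf fell over empty vector with Y640F (-1.63 ± 0.23, adjusted p = 3.7e-05) and with STAT3 (-1.06 ± 0.22, adjusted p = 0.0012), the last below a 2-fold change without empty vector replicate 2 (-0.84) or STAT3 replicate 2 (-0.99). Y640F over STAT3 gave -0.58 ± 0.25 (adjusted p = 0.066), not called.

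Hp had 0.556, 0.508 and 0.600 CPM with Y640F in HPC7, 0.244, 0.108 and 0.134 CPM with STAT3 and 3.32, 2.82 and 1.98 CPM with empty vector. STAT3 was lowest, Y640F intermediate and empty vector highest, with no overlap. Hp fell over empty vector with Y640F (-2.24 ± 0.25, adjusted p = 4.4e-06) and with STAT3 (-4.02 ± 0.32, adjusted p = 2.5e-07), and was higher with Y640F than with STAT3 by 1.79 ± 0.40 (adjusted p = 0.0022). Its STAT3 level rests on 16 counts over the group.

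Mmp9 had 1.77, 1.82 and 1.55 CPM with Y640F in HPC7, 1.80, 1.48 and 1.31 CPM with STAT3 and 0.887, 0.684 and 0.757 CPM with empty vector. Both forms lay above empty vector and overlapped each other. Mmp9 rose by 1.15 ± 0.20 with Y640F over empty vector (adjusted p = 2.7e-04), and its log2 fold change with STAT3 over empty vector was 0.98 ± 0.21 (adjusted p = 0.0015), just under the 2-fold minimum but past it (1.0 to 1.08) without empty vector replicate 1 or STAT3 replicate 2 or 3. Y640F over STAT3 gave 0.17 ± 0.18 (adjusted p = 0.43), not called. Chromosome 2, which carries Mmp9, had a median log2 fold change of 0.47 for Y640F over empty vector and 0.44 for Y640F over STAT3 over its 1008 tested genes in HPC7, against 0.0 for all genes, and 0.03 for STAT3 over empty vector. The 18 tested genes within 500 kb of Mmp9 had medians of 0.51 and 0.42 in the comparisons of Y640F. The part of this shift in the Mmp9 result was not tested. In HPCLSK the medians of the chromosomes that carry the 8 genes ran from -0.03 to 0.04 in all 3 comparisons.

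Granule regulators in HPC7 were called lower or not at all against empty vector. Over all genes tested there, 8.18% were called for Y640F over empty vector, 7.22% for STAT3 over empty vector and 7.89% for Y640F over STAT3. Of 8 tested, 3 were lower and none higher with Y640F over empty vector, 4 were lower and none higher with STAT3 over empty vector, and 1 was higher and 1 lower with Y640F over STAT3. Cebpa, a C/EBP factor of early granulocyte fate, fell with Y640F (-2.70 ± 0.28) and with STAT3 (-1.38 ± 0.24), and so did Csf3r (-1.77 ± 0.11 with Y640F and -1.09 ± 0.10 with STAT3). Cebpe averaged 0.17 ± 0.0354 CPM with Y640F, 0.24 ± 0.131 with STAT3 and 0.69 ± 0.0684 with empty vector in HPC7 (SD, n = 3). Primary granule genes, 6 tested, had 3 lower and none higher with each form over empty vector (Mpo -1.87 with Y640F, Ms4a3 -2.32 with STAT3), and 1 higher and 1 lower with Y640F over STAT3. The 10 other specific and gelatinase granule genes tested gave none higher and 1 lower with Y640F, 1 higher and 1 lower with STAT3, and 1 higher and 2 lower with Y640F over STAT3. Of 3 receptors and partners tested, none was called with Y640F over empty vector, 2 were lower with STAT3 over empty vector (Lrp1 -2.34, Slc22a17 -2.04), and both were higher with Y640F than with STAT3. Neutrophil markers in HPC7 summed to 26.6 to 28.3 CPM with Y640F, 31.3 to 31.6 with STAT3 and 52.7 to 71.3 with empty vector, and Ly6g was at 0 throughout. Of 3 neutrophil markers tested there, 2 were lower and none higher with each form over empty vector, S100a8 and Csf3r, and none was called for Y640F over STAT3. The other marker lists in HPC7 gave, with Y640F over empty vector, 2 higher and 1 lower of 8 monocyte markers, 4 higher of 5 erythroid markers, 1 higher and 3 lower of 8 progenitor markers, 1 higher and 1 lower of 5 megakaryocyte markers and 1 lower of 3 mast cell markers. With STAT3 over empty vector they gave 1 higher and 3 lower, 0 called, 3 lower, 2 higher and 1 lower in the same order of lists.

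Compared between the lines with empty vector, all 8 genes were called higher in HPCLSK than in HPC7, where 22.8% of 13891 genes tested were called higher and 13.6% lower, 36.4% in all. Camp, Ngp, Lcn2, Chil3 and Mmp8 could pass the filter on low counts only through HPCLSK, so this count is a description. Hp averaged 114 ± 25.9 CPM in HPCLSK and 2.71 ± 0.676 CPM in HPC7 with empty vector (SD, n = 3), a log2 fold change of 5.43 ± 0.41 (adjusted p = 3.4e-10). Ltf averaged 21.8 ± 16.2 CPM in HPCLSK and 4.50 ± 1.60 CPM in HPC7 (2.33 ± 0.47, adjusted p = 1.6e-04), and the log2 fold change was 1.65 without HPCLSK empty vector replicate 2. Mmp9 averaged 2.71 ± 2.31 CPM in HPCLSK and 0.776 ± 0.103 CPM in HPC7 (1.93 ± 0.67, adjusted p = 0.012), a call that was lost without HPCLSK empty vector replicate 2 (1.29, adjusted p = 0.16). Without both HPCLSK libraries that stood apart, the log2 fold changes were 5.55 for Hp, 2.73 for Ltf and 2.35 for Mmp9, all called. For genes near 0 in HPC7 the ratio of levels is given with its counting interval. Lcn2 was 894-fold higher in HPCLSK (95% exact binomial interval 383 to 2755), Ngp 3048-fold (843 to 25181) and Camp 234-fold (41.4 to 9316). Chil3 was at least 3148-fold and Mmp8 at least 109.6-fold higher in HPCLSK, against a floor of 3 counts over the HPC7 group. These intervals and floors cover counting error only. The median over the 723 tested genes of chromosome 3, which carries Chil3, was 0.92 higher in HPCLSK with empty vector, against 0.04 for all genes. Of 20 tested genes within 500 kb of Chil3, 15 were called higher in HPCLSK with empty vector.

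The response to each form of STAT3 was compared between the lines for the 3 genes tested in both, as HPCLSK minus HPC7 in a fit of all 18 libraries. Stat3 RNA itself was higher in HPCLSK than in HPC7 with Y640F and lower with STAT3. Line and amount of Stat3 RNA therefore cannot be told apart here. For Y640F over empty vector, Hp differed by 6.47 ± 0.82 (adjusted p = 2.9e-06) and Mmp9 by 3.65 ± 0.91 (adjusted p = 0.0025), while the difference for Ltf was -0.41 ± 0.82 (adjusted p = 0.74). For STAT3 over empty vector, Hp differed by 5.44 ± 1.03 (adjusted p = 4.4e-04) and Ltf by 3.19 ± 0.70 (adjusted p = 0.0017), while the difference for Mmp9 was 0.28 ± 0.89 (adjusted p = 0.89). Thus 2 of 3 were called higher and none lower with each form, where 7.74% of all genes were higher and 7.25% lower for Y640F (15% in all) and 6.16% higher and 2.09% lower for STAT3 (8.25% in all). Without both HPCLSK libraries that stood apart, the differences were 6.03 for Hp, 2.67 for Mmp9 and -0.58 for Ltf with Y640F, and 5.31 for Hp, 2.77 for Ltf and -0.16 for Mmp9 with STAT3, with the same calls. Hp moved in opposite directions in the lines, up with both forms in HPCLSK and down with both in HPC7. Ltf moved down with Y640F in both lines and in opposite directions with STAT3. Its fall with Y640F in HPCLSK was not called without empty vector replicate 2 (-1.37, adjusted p = 0.083).

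Over the 18 libraries of both lines, the levels of Chil3, Lcn2 and Hp were closely correlated, and those of Ltf and Mmp8 were not. Within HPCLSK the first 3 differed, with log2 fold changes for Y640F over STAT3 of -0.26 for Chil3, 1.60 for Lcn2 and 2.80 for Hp. On log2(CPM + 1), Pearson's r was 0.988 for Lcn2 and Chil3, 0.986 for Lcn2 and Hp, 0.967 for Ltf and Camp and 0.959 for Mmp8 and Mmp9, against 0.238 for Ltf and Mmp8. Each r describes 18 libraries that share the difference between the lines. Among 11803 genes compared, those most like each granule gene were Itgb2l and Glt1d1 for Ltf (0.956 and 0.954), Otogl and Glt1d1 for Camp (0.986 and 0.975), and Ly6c2 and Rras2 for Ngp (0.996 and 0.993). Lcn2 was nearest to Mtus1 and S100a8 (both 0.999) and Chil3 to Trem3 and Anxa3 (0.999 and 0.997). Hp was nearest to Cd300lb and Arhgdib (0.998 and 0.997), Mmp8 to Il1b and Cdk20 (0.995 and 0.993), and Mmp9 to Nagpa and Clec4a1 (0.976 and 0.973).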

How the data were processed

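The deposited values are raw counts of reads per gene, with 50686 genes in each of 18 RNA libraries. The authors made them with featureCounts 1.5.1, reverse-stranded and summed over the exons of GENCODE M13 genes (GRCm38), per the file headers and the series text. The submitters' processing notes also name Trimmomatic and STAR. The series text and the sample protocols name different mRNA kits. The chromatin samples (12 of 30) were not analysed here. Symbols came from matching gene IDs, with 310 IDs left unnamed.

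The quasi-likelihood test of edgeR 4.0.16 (R 4.3.3), with TMM scaling and filterByExpr, gave the comparisons. Benjamini-Hochberg adjustment ran over all genes tested, and the fit was tested on simulated data. Within-line fits had 9 libraries and 6 residual degrees of freedom, and fits across lines had 18 and 12. Standard errors are the log2 fold change divided by the root of the F statistic. Depth ran from 9537258 to 38556669 counts, and intervals and floors cover counting error only. Library pairs of a group differed by more than sampling noise (chi-square per degree of freedom 2.49 to 27.04), so none was merged as a duplicate of another. They remain technical replicates per the series text.

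The alternatives were other scalings, other filters, DESeq2 1.42.0, a replicate block, glmTreat of edgeR, each replicate left out, and the pair of HPCLSK libraries that stand apart left out together. The granule genes, the lists, the rule for named genes and the tests were chosen with earlier results of these data known. By that rule, all 8 granule genes were named, up to 3 called genes per list and comparison with the largest change and at least 1 CPM, and the 2 genes with the highest correlation to each granule gene among genes tested over 18 libraries. Ly6g, Retnlg, C1qa, Csf3r in HPCLSK, Timp2, Slc22a17, Gfi1, Orm1 against STAT3, Chil5 with STAT3, Ly6c2, Cebpe in HPC7, Kit and Elane levels, neighbouring genes and genes at 0 were named outside it, after their values were seen. Upstream sequences are from the RefSeq promoter table.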

Additional observations from a re-analysis of the deposited data

Results flagged for a closer look

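The effect of a vector differed between HPCLSK and HPC7 by a test of the difference itself for these genes. With Y640F over empty vector, the log2 fold change in HPCLSK minus that in HPC7 was 6.47 for Hp and 3.65 for Mmp9. With STAT3 over empty vector, it was 5.44 for Hp and 3.19 for Ltf. In HPC7 these genes were low, with 16 to 220 counts over a group for Hp, 148 to 375 for Ltf and 65 to 177 for Mmp9. Line, strain label and flow cell go together, so they cannot be told apart. Stat3 RNA also differed between the lines, with 1900.2 CPM in HPCLSK and 669 in HPC7 with Y640F, and 599 and 996 with STAT3. With empty vector it was 354 and 225 CPM. The amount of Stat3 RNA cannot be told apart from the line either. Without the pair of HPCLSK libraries that stood apart, the differences were 6.03 for Hp and 2.67 for Mmp9 with Y640F and 5.31 for Hp and 2.77 for Ltf with STAT3, all called.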

How the results depend on the processing

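Over 43 log2 fold changes of granule genes and 614 alternative values, 581 kept direction and call, 25 lost the call, 4 gained it and 4 changed sign. The sign changed for values that were not called: the line difference of Mmp9 with STAT3 became -0.16 without HPCLSK empty vector replicate 1, without HPCLSK STAT3 replicate 2 and without both libraries that stood apart, and that of Ltf with Y640F became 0.28 without HPCLSK empty vector replicate 2. With 1 replicate left out, these differences ranged from -0.16 to 0.92 for Mmp9 and from -0.82 to 0.28 for Ltf. A filter of at least 5 CPM in 3 libraries left 0 granule genes called in each of the 3 HPC7 comparisons, since none was then tested. Under glmTreat against a 1.5-fold change, calls numbered 1 for STAT3 over empty vector in HPC7 (2 in the reported test), and in HPCLSK 5 for Y640F over empty vector (8) and 3 for STAT3 over empty vector (7). The 3 calls lost for Y640F over empty vector in HPCLSK were the falls of Ltf, Camp and Ngp (glmTreat adjusted p of 0.0683, 0.0832 and 0.125). With 1 replicate left out, calls ranged from 5 to 8 for Y640F over empty vector and from 3 to 7 for STAT3 over empty vector in HPCLSK, and from 1 to 3 for STAT3 over empty vector in HPC7. The causes were not tested. Same-numbered libraries showed no shared deviation (correlations -0.10 to 0.06 in HPC7 and -0.19 to 0.10 in HPCLSK). This gives no sign that the numbers are pairs, but with 3 libraries per group a weak pairing could be missed. With the replicate block, Mmp8 lost its call with STAT3 over empty vector in HPCLSK (1.08, adjusted p = 0.071) and Mmp9 its call between the lines with empty vector (1.61, adjusted p = 0.12), and no other call of a granule gene changed. Under the 5 CPM filter, calls over all genes numbered 3089 (reported 5054) between the lines with empty vector, 416 (1038) for Y640F over empty vector, 444 (1001) for Y640F over STAT3 and 340 (916) for STAT3 over empty vector in HPC7, and 1201 (2032), 982 (1783) and 343 (577) in the same order in HPCLSK. In HPC7, whose libraries were the deeper ones, 5 granule genes had 0 to 5 counts over a group and were not tested.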

Other observations

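Neighbours of the metalloprotease genes in HPCLSK were chosen after their values were seen, with 9.62% of all genes tested called higher for Y640F over empty vector. Of 7 tested genes within 500 kb of Mmp8, 2 were called higher with Y640F over empty vector, and both are metalloproteases of the same cluster, Mmp12 and Mmp13. Of 18 tested genes near Mmp9, 4 were called higher, Snx21, Ctsa, Pltp and Slc12a5, and none lower.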
